A study of Mus musculus with 2 samples.

Results

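The spots described here are the 120 Visium spots with the highest combined signal of Hcrt and Pmch, 60 in each of 2 coronal brain sections, out of 7260 spots in all. A Visium spot is a barcoded patch of the array that can take up RNA from several cells or from parts of cells, and RNA molecules are counted by unique molecular identifiers (UMIs). In each section, spots with at least 500 UMIs in array rows numbered 40 or more, which lie lower on the image, were ranked by the mean over both genes of log1p(10000 × count / spot total), and the 60 highest were taken as members. The members were thus selected on Hcrt and Pmch, whose levels in members are given as a description with no test. The sections came from 2 mice, both expressing hM3Dq, an engineered receptor that the drug CNO switches on, and both given CNO. Both genotype labels begin with WT. That of mouse 1 goes on with C57BL/6J control, while the second mouse is an isogenic control edited with CRISPR-Cas9. Brains were frozen fresh with no perfusion, and the lateral parts were trimmed. Sections of 10 µm were taken 1.9 mm posterior to bregma for a capture area of 6.5 mm, with the injection at 4.6 mm posterior. The mice form 1 group (n = 2) with no untreated section, so comparisons run between spots of the same sections. The labels give neither the age of the mice nor the cell type that expressed the receptor, nor which image side was injected.

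Hcrt encodes the precursor of the orexins (hypocretins), and Pmch encodes the precursor of melanin-concentrating hormone (MCH). In the mouse both are made by separate, intermingled neurons of the lateral hypothalamus and the zona incerta. Orexin neurons are known for sustaining wakefulness and for reward and feeding. MCH neurons are known for feeding, energy balance and rapid eye movement sleep. Each precursor is cut by prohormone convertases and packed into dense-core vesicles before release.

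In the RefSeq annotation of GRCm38.p6, Hcrt lies at chr11:100761693-100762931 on the minus strand and Pmch at chr10:88091072-88092374 on the plus strand. The 100 bases before each annotated start are shown because these are the genes that chose the spots, and both windows hold the TATA motif TATAAA, printed in capitals.
Hcrt, chr11:100762932-100763031, minus strand: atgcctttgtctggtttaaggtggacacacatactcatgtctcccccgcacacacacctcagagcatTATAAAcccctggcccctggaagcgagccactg
Pmch, chr10:88090972-88091071, plus strand: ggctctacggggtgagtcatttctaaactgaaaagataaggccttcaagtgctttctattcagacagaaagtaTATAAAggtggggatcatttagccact
The motif runs from 33 to 28 bases before the start in Hcrt and from 27 to 22 bases before it in Pmch. Searched as TATAAA on both strands, it occurred in 5.56% of 32851 RefSeq promoter windows of 100 bases, and on the gene's own strand in 3.80%. The matches describe these letters and show no binding.

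Mouse 1 had 3712 spots with at least 500 UMIs of 3715 under tissue, and mouse 2 had 3548 of 3549. The sections gave 30671753 and 55315952 UMIs, so mouse 2 was sampled more deeply. The sections listed 3369 barcodes in common, since a barcode marks a position on the array, and 21 member positions were the same. Members were 1.62% of the spots of mouse 1 and 1.69% of those of mouse 2. They lay in 2 clumps near the lower edge of each section, in rows 61 to 72 in mouse 1 and 62 to 72 in mouse 2. A mirror line fitted to the expression of each section, without the rule genes, put 26 members on the image left and 34 on the image right in mouse 1, and 30 on each side in mouse 2. In mouse 1 the median distance from this line was 14.0 spot pitches (the spacing of neighbouring spots) on the left and 12.2 on the right. In mouse 2 it was 10.3 and 11.2 pitches. In all, 53 members in mouse 1 and 56 in mouse 2 touched another member at 1 pitch. The median member held 9311 UMIs in mouse 1 against 7525.5 in the other spots, and 18064 against 14610.5 in mouse 2. Mitochondrial genes took 12.2% and 15.3% of the members' UMIs, against 13.4% and 15.4% elsewhere.

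**Figure D1:**
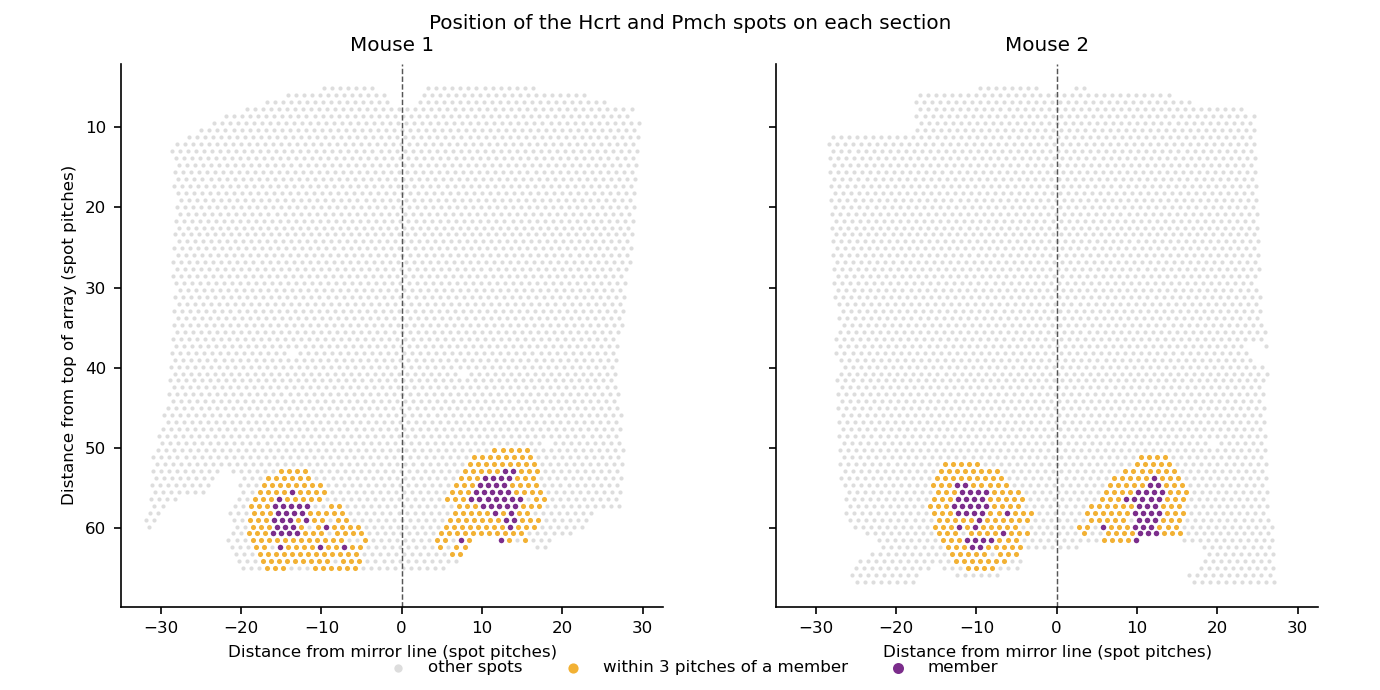
Position of members (purple), of spots within 3 pitches of a member (yellow) and of the remaining spots (grey) in mouse 1 (left) and mouse 2 (right), in spot pitches from the fitted mirror line (x axis, dashed line at 0) and from the top of the array (y axis). Members form 1 clump on each side of the line in both sections, with a few single spots nearer the line.

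The members carried 9370 of the 16410 Hcrt UMIs of mouse 1 (57.1%) and 8955 of 13519 in mouse 2 (66.2%). For Pmch the members carried 20039 of 38524 UMIs (52.0%) in mouse 1 and 41115 of 77239 (53.2%) in mouse 2. Most of the signal of both peptides thus sat in under 2% of the spots of each section. Summed over members, Hcrt stood at 15414 CPM (the UMI count scaled to a common library total) in mouse 1 and 8254 CPM in mouse 2, against 234 and 84.2 CPM in all other spots. Pmch stood at 32964 and 37895 CPM, against 615 and 666 CPM. The Hcrt level was 1.87-fold higher in the members of mouse 1 than in those of mouse 2 (exact Poisson interval 1.81 to 1.92, which covers counting error only), while the Pmch level was 1.15-fold higher in mouse 2 (1.13 to 1.17).

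Every member held UMIs of both genes. Hcrt UMIs per member ran from 7 to 1224 with a median of 90 in mouse 1, and from 8 to 1009 with a median of 68 in mouse 2. Pmch UMIs ran from 21 to 1578 with a median of 166 in mouse 1, and from 65 to 2543 with a median of 485 in mouse 2. At least 10 UMIs of each gene were found in 58 members of either mouse. Over the 60 members, the shares of Hcrt and Pmch in the spot total had a Spearman rho of -0.24 in mouse 1 and -0.55 in mouse 2. These values describe members that were ranked on the sum of both signals, and the points of a section share its library. The score fell from 6.25 in the highest member to 4.23 in the sixtieth in mouse 1, with 4.2 in the next spot below. In mouse 2 it fell from 5.93 to 4.10, with 4.09 in the next spot. The sixtieth spot of mouse 1 held 7 Hcrt and 914 Pmch UMIs, and the next spot held 28 and 57.

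**Figure D2:**
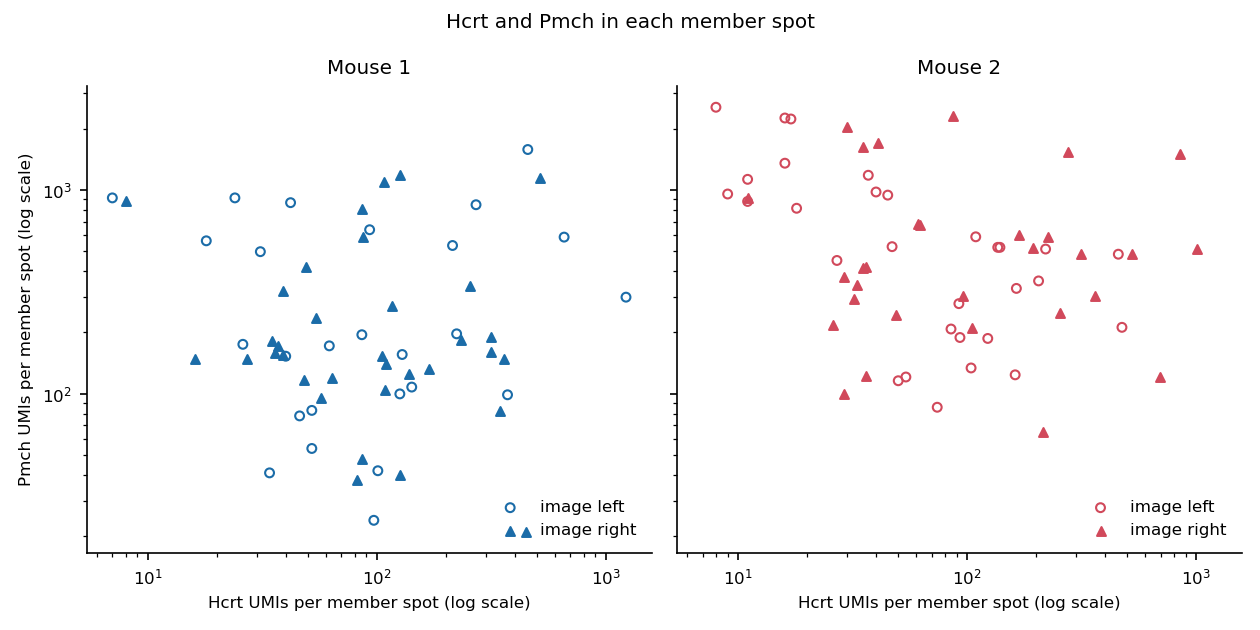
UMIs of Hcrt (x axis, log scale) and Pmch (y axis, log scale) in each member of mouse 1 (left) and mouse 2 (right), with open circles for the image left and filled triangles for the image right. Hcrt ranges from 7 to 1224 UMIs in mouse 1 and from 8 to 1009 in mouse 2, and spots rich in 1 peptide include some that hold few UMIs of the other.

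Each peptide was also read in spots that the other had chosen, so the gene read did not enter the choice. The choice was limited to rows 40 or more, while the other spots included rows under 40. In rows under 40 of mouse 1 and mouse 2, Pmch stood at 24.1 and 20.7 CPM and Hcrt at 11.2 and 4.49 CPM. In the non-member spots of rows 40 or more, Pmch stood at 1171 and 1326 CPM and Hcrt at 444 and 166 CPM. Genes of the same region would thus show a large fold here, whether or not the same cells make them. In the 60 spots per section with the highest Hcrt signal alone, Pmch stood at 22193 CPM in mouse 1 and 19705 CPM in mouse 2, against 822 and 1061 CPM in the other spots. That is 23.9-fold higher (log2 difference 4.58 ± 0.13 SE, adjusted p = 1.42e-264). In the 60 spots with the highest Pmch signal alone, Hcrt stood at 10053 and 5700 CPM against 355 and 142 CPM, which is 37.0-fold higher (log2 difference 5.21 ± 0.09, adjusted p returned as 0). The test was edgeR's quasi-likelihood test on UMIs summed per mouse and spot class with the mouse as a block, adjusted by Benjamini-Hochberg over all genes. Such a fit has 4 libraries and 1 residual degree of freedom. Its SE rests on a spread pooled over genes, not on the spread between the mice, and it is used in this way throughout. The Hcrt and the Pmch choice had 26 of their 60 spots in common (43.3%) in mouse 1. In mouse 2 they had 21 in common (35.0%).

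Both peptides fell off with distance. In the spots 1 pitch from a member, Hcrt stood at 3024 CPM in mouse 1 and 1662 CPM in mouse 2, and over 15 pitches away at 14.4 and 5.87 CPM. Pmch went from 7830 and 12304 CPM at 1 pitch to 33.4 and 36.5 CPM over 15 pitches away. Cartpt, which encodes the CART peptides that many MCH neurons of rodents also make, stood at 656 CPM in the members of mouse 1, 680 CPM at 1 pitch and 14.7 CPM over 15 pitches away, and in mouse 2 at 805, 396 and 16.4 CPM. Nts, the neurotensin precursor, was highest beside the members and not in them, at 375 CPM at 1 pitch against 189 CPM in members of mouse 1, and at 250 against 163 CPM in mouse 2. Nptx2 and Lhx9 had a different course, high in members, low around them and higher again far away. Lhx9 stood at 18.1 and 21.2 CPM in members, at 2.37 and 4.50 CPM at 1 pitch, and at 21.8 and 26.9 CPM over 15 pitches away.

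**Figure D3:**
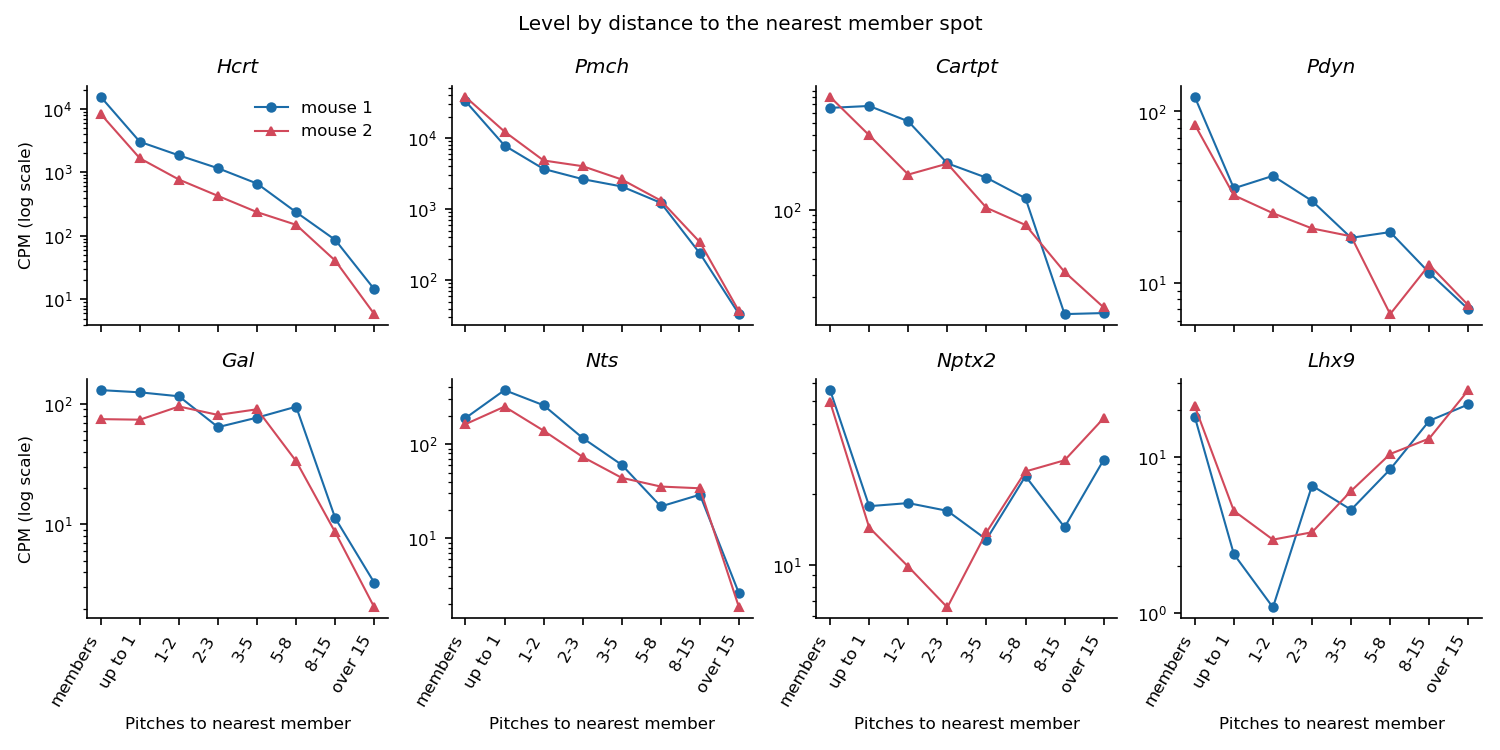
Level of 8 genes (y axis, CPM on a log scale) in members and in spots grouped by distance to the nearest member (x axis, spot pitches) for mouse 1 (circles) and mouse 2 (triangles). Hcrt and Pmch fall with distance, Gal stays near its member level over the first pitches, Nts peaks at 1 pitch, and Nptx2 and Lhx9 are lower around the members than in them or far away.

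Outside the members, Hcrt UMIs occurred in 45.7% of the spots in rows 40 or more in mouse 1 and in 41.2% in mouse 2. In the rows under 40, which hold the upper part of the section on the image, they occurred in 8.09% (exact binomial interval 6.89 to 9.43%) and 6.75% of spots. For Pmch the shares were 63.2% and 73.7% in rows 40 or more, and 14.3% and 25.2% in rows under 40. The part of spread RNA in these shares was not tested. With summed spots, a lower level can mean fewer cells of a type or less RNA per cell, and these cannot be told apart.

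Against all other spots of the same sections, 1249 of 15122 genes were higher in members (8.26%) and 1453 were lower (9.61%), at an adjusted p under 0.05. Since members occupy 1 region, this comparison also shows how that region differs from the rest of the section. Counts for gene lists are read against these shares and against the median log2 difference of all genes tested, which was -0.08. The lists were chosen with earlier results of these data known, so their counts are a description and no test of enrichment. A listed gene could pass the filter on low counts through either class of spots. DESeq2 called 592 genes higher and 500 lower, and edgeR without the mouse block called 635 and 881. With library totals in place of TMM scaling, 904 were higher and 2051 lower, and the median of all genes moved to -0.19.

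Of 6 listed genes of orexin neurons other than Hcrt, 4 were higher and 1, Slc17a6, was lower, with a median log2 difference of 1.36. Some genes stand in more than 1 list and are counted in each. Pdyn, which encodes the dynorphin precursor that orexin neurons of the mouse co-release, stood at 122 and 83.9 CPM in members of mouse 1 and mouse 2 against 11.4 and 9.77 CPM, a log2 difference of 3.36 ± 0.18 (adjusted p = 3.53e-71). Scg2, a granin of dense-core vesicles, stood at 1916 and 1412 CPM against 210 and 265 CPM (2.91 ± 0.08, adjusted p = 2.27e-294). Both mice lay above their other spots for these genes. Over all genes, both mice lay in the direction of the call in 2670 of the 2702 called. Rfx4, a winged-helix transcription factor, was higher by 1.85 ± 0.24 on the log2 scale (adjusted p = 4.83e-13). Nptx2, a secreted pentraxin that gathers AMPA receptors at synapses, stood at 55.9 and 49.8 CPM against 24.1 and 35.9 CPM (0.86 ± 0.20, adjusted p = 0.000173). Its call was lost without the mouse block, with spots chosen by Pmch alone and with thinning to equal depth. That thinning evened the mice within each spot class, not the classes compared. Lhx9, a LIM-homeodomain factor with a part in forming orexin neurons of the mouse, did not differ detectably at 18.1 and 21.2 CPM against 17.9 and 21.4 CPM (0.11 ± 0.28, adjusted p = 0.865).

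Of 6 listed genes of MCH neurons other than Pmch, 1, Parpbp, overlaps Pmch and is set apart as a description. Of the other 5, Tacr3, Cartpt and Gad1 were higher and Nrxn3 and Slc17a6 were lower, with a median of 0.74. Cartpt stood at 656 and 805 CPM against 67.2 and 40.4 CPM, a log2 difference of 3.96 ± 0.09 (adjusted p returned as 0). Tacr3, the receptor of neurokinin B, stood at 32.9 and 48.8 CPM against 1.83 and 2.32 CPM (4.43 ± 0.32, adjusted p = 1.33e-41). Members thus held more of both in either mouse. Parpbp, which encodes a binding partner of the DNA repair enzyme PARP1, stood at 211 and 177 CPM against 2.93 and 3.93 CPM, a log2 difference of 5.88. It lies at chr10:88091398-88146969 on the minus strand and overlaps Pmch by 977 bases on the opposite strand. Whether the counting used strand is not given in the sources used here, so Parpbp and Pmch reads cannot be told apart there, and no test of Parpbp is given. It is among the genes called in the counts over all genes, and with it the list of MCH neurons had 4 of 6 higher and a median of 2.35.

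**Figure D4:**
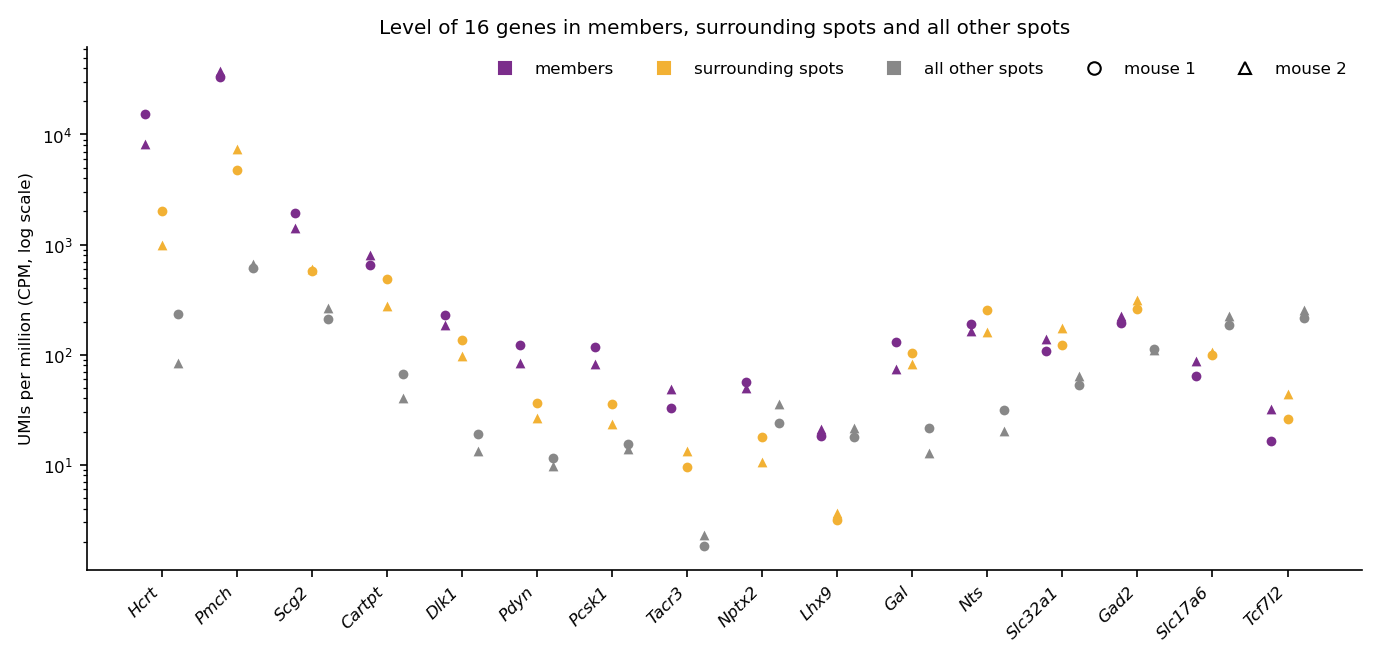
Level (y axis, CPM on a log scale) of 16 listed genes (x axis) in members (purple), surrounding spots within 3 pitches (yellow) and all other spots, which include the surrounding ones (grey), with circles for mouse 1 and triangles for mouse 2. From Hcrt to Pcsk1 the members exceed both other classes in either mouse, while Lhx9 in members exceeds the surrounding spots only.

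Among other neuropeptide genes, 10 of 29 tested were higher and 4 were lower (median 0.57), and 7 of the 36 listed did not pass the filter. Gal, the galanin precursor, stood at 130 and 74.7 CPM against 21.5 and 12.7 CPM (2.69 ± 0.17, adjusted p = 1.15e-50). Nts stood at 189 and 163 CPM against 31.6 and 20.1 CPM (2.94 ± 0.14, adjusted p = 1.4e-94). Agrp, the feeding peptide of the arcuate nucleus, passed at 3.84 ± 1.24 (adjusted p = 0.0147) but with 4 and 3 UMIs in the members, and it lost the call with 30 spots per section and with thinning. The other neuropeptide genes that were higher were Tac1, Tac2, Penk, Npb, Cbln1, Cartpt and Pdyn, and those that were lower were Sst, Npy, Cck and Oxt. Oxt had 0 UMIs in the members of mouse 2, and its level around the members differed between the sections, as given below.

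Of 34 tested receptor genes for peptides and metabolic signals, 11 were higher and 1 lower (median 0.34). Calcr, the calcitonin receptor, stood at 19.7 and 27.7 CPM against 1.63 and 2.1 CPM (3.79 ± 0.40, adjusted p = 5.01e-19). Avpr1a, a vasopressin receptor, had 6 and 5 UMIs in the members (3.18 ± 0.84, adjusted p = 0.00149). The receptors of the peptides themselves were scarce. Hcrtr1, an orexin receptor, had 3 and 11 UMIs in members, at 4.94 and 10.1 CPM against 1.80 and 1.94 CPM (2.24 ± 0.61, adjusted p = 0.00263), and its call was lost with DESeq2, with 30 spots per section and with thinning. Hcrtr2 had 1 and 4 UMIs (1.31 ± 0.99, adjusted p = 0.426), and Mchr1, the MCH receptor, had 3 and 2 UMIs (-1.11 ± 0.64, adjusted p = 0.257). A difference in these 2 receptors was not detectable at this depth. The other receptor genes that were higher were Tacr3, Npy2r, Ntsr1, Oprk1, Oprl1, Trhr, Adcyap1r1 and Cnr1, and Nr3c1, the glucocorticoid receptor, was lower.

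Of 36 tested hypothalamic transcription factors, 10 were higher and 7 lower (median 0.58), while 10 of the 46 listed did not pass the filter. Nkx2-1, a homeobox gene that marks the developing ventral hypothalamus, had 8 and 28 UMIs in members, at 13.2 and 25.8 CPM against 2.16 and 1.73 CPM (3.59 ± 0.43, adjusted p = 3.39e-15). Hmx2, a homeobox gene of the medial hypothalamus, had 9 and 7 UMIs (4.61 ± 0.83, adjusted p = 6.01e-07). Nkx2-4, Ebf3, Bsx, Isl1, Dlx1, Dlx6 and the imprinted zinc finger gene Peg3 were among the others that were higher. The 7 lower genes are counted but not named here, so the named genes show only the higher direction of a mixed list.

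In the list for peptide processing and vesicle release, 17 of 27 genes were higher and 3 lower (median 0.64). Pcsk1, a prohormone convertase, stood at 118 and 82.0 CPM against 15.4 and 13.9 CPM (2.85 ± 0.18, adjusted p = 1.54e-55). Baiap3, which acts in dense-core vesicle release, stood at 114 and 98.6 CPM against 17.0 and 17.7 CPM (2.71 ± 0.17, adjusted p = 4.91e-54). Resp18, Vgf, Pam, Nucb2, Rab3b, Rab27b and Syt4 were among the others that were higher, and Cpe, Chgb and Secisbp2l were lower. Secisbp2l is counted here by its list only and is not read as a gene of peptide processing. Of 27 tested imprinted genes, 18 were higher and 1 lower (median 0.82). Dlk1, a Notch pathway ligand, stood at 227 and 186 CPM against 19 and 13.5 CPM (3.81 ± 0.14, adjusted p = 6.66e-152). Plagl1, an imprinted zinc finger factor, stood at 57.6 and 45.2 CPM against 8.18 and 8.15 CPM (2.74 ± 0.25, adjusted p = 3.19e-25), and Asb4 was higher by 2.56 ± 0.36 (adjusted p = 2.35e-11). Peg3, Ndn, Magel2, Nnat, Nap1l5 and Impact were also higher, and Igf2 was lower.

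Genes outside the lists among the largest rises were Chodl, Arhgap36, Gpx3, Gabrq, Fkbp11 and H2-Q2. Chodl, a membrane lectin, stood at 24.7 and 47.0 CPM against 1.46 and 1.99 CPM (4.53 ± 0.34, adjusted p = 2.07e-37). Gpx3, a secreted glutathione peroxidase, stood at 308 and 259 CPM against 26.1 and 22.8 CPM, a log2 difference of 3.65 ± 0.12. Gabrq, the theta subunit of GABA-A receptors, stood at 52.6 and 32.3 CPM against 5.19 and 4.48 CPM, a log2 difference of 3.19 ± 0.29.

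Of 15 tested transmitter genes, 5 passed as higher and 2 as lower, while 8 passed in neither direction (median 0.35). Slc32a1, the vesicular GABA transporter, stood at 109 and 140 CPM against 53.3 and 63.4 CPM (1.22 ± 0.13, adjusted p = 2.02e-18). Gad1, a GABA-synthesising enzyme, stood at 250 and 340 CPM against 203 and 192 CPM (0.74 ± 0.08, adjusted p = 7.54e-20). Slc17a6, the vesicular glutamate transporter that orexin and MCH neurons of the mouse use, stood at 64.2 and 87.6 CPM against 187 and 227 CPM (-1.31 ± 0.11, adjusted p = 1.2e-28). Slc17a7, the cortical and hippocampal transporter, fell by 3.71 ± 0.16 on the log2 scale (adjusted p = 8.17e-114).

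Neighbouring regions were read through their own lists. Of 16 thalamic genes, 15 were lower (median -2.93), and their summed level was 528 and 602 CPM in members against 3172 and 3520 CPM elsewhere. Of 16 genes of cortex, amygdala and hippocampus, 13 were lower (median -3.50). Shox2, a thalamic homeobox gene, stood at 1.65 and 1.84 CPM against 71.9 and 76.1 CPM (-5.28 ± 0.40). Of 18 genes of the medial hypothalamus, 10 were higher (median 1.69), although Nr5a1, which defines the ventromedial nucleus, had 0 UMIs in the members of both mice. Of 11 genes of the zona incerta and subthalamic area, 4 were higher and 3 lower (median 0.44). Ecel1 stood at 59.2 and 55.3 CPM against 11.4 and 9.42 CPM (2.59 ± 0.22), while Pvalb stood at 67.4 and 59 CPM against 416 and 320 CPM (-2.40 ± 0.13). The label of lateral hypothalamus was checked only against these markers and the position on the array. For striatum and pallidum 3 of 10 were higher and 3 lower (median 0.22).

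Lists of glia, vessels, ventricles and blood were read in the same way. Of 16 myelin genes, 4 were lower and none was higher at this threshold (median -0.18), and their summed level was 8890 and 11999 CPM in members against 12712 and 12971 CPM. Among 9 genes of oligodendrocyte precursors 2 were lower, among 17 astrocyte genes 2 were higher and 6 lower, and among 15 genes of endothelium and pericytes 1 was higher. Choroid plexus genes were lower in 8 of 9 (median -3.37), with Ttr, the transthyretin gene, at 47.7 and 24.0 CPM against 3648 and 2551 CPM (-6.38 ± 0.12). Of 11 genes of ependyma and tanycytes 1 was higher and 5 lower (median -1.12), and the ependymal genes Ccdc153 and Tmem212 had 0 UMIs in members of both mice. Genes of meninges and blood were lower in 7 of 13. Of 11 genes of stress and RNA quality, 1 was higher and 3 lower (median 0.01), with Malat1 at 462 and 731 CPM against 1101 and 1091 CPM (-0.76 ± 0.08, adjusted p = 4.87e-20), a call that was lost without the mouse block. The part of any of these lists in the other results was not tested.

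Complement component C1q and immunoglobulins are named in the title of the series. Of 16 microglial genes 2 were lower, of 18 complement genes and receptors 3 were lower, and of 12 immunoglobulin genes 2 were lower. C1qa, a chain of the first complement component, had 39 and 50 UMIs in members, at 64.2 and 46.1 CPM against 83.6 and 70.7 CPM (-0.40 ± 0.16, adjusted p = 0.075). C1qb had 31 and 54 UMIs, at 51.0 and 49.8 CPM against 84.3 and 73.6 CPM (-0.51 ± 0.17, adjusted p = 0.0142), a call that was lost with DESeq2, without the mouse block and with thinning. C1qc stood at 69.1 and 32.3 CPM against 67.6 and 62 CPM (-0.36 ± 0.18, adjusted p = 0.162), and C4b at 31.3 and 14.7 CPM against 25.5 and 16.6 CPM (0.18 ± 0.28, adjusted p = 0.751). Igkc, the kappa light chain gene, had 14 UMIs in the members of mouse 1 and 1 in those of mouse 2 (-1.15 ± 0.35, adjusted p = 0.00901). That call was lost in 4 alternatives, and with spots chosen by Hcrt alone the difference turned to 0.08. Of 22 immediate early genes 1 was higher and 8 lower (median -0.98), and Fos, with 6 and 12 UMIs in members, stood at 9.87 and 11.1 CPM against 12.1 and 12.4 CPM (-0.10 ± 0.38, adjusted p = 0.918).

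**Figure D5:**
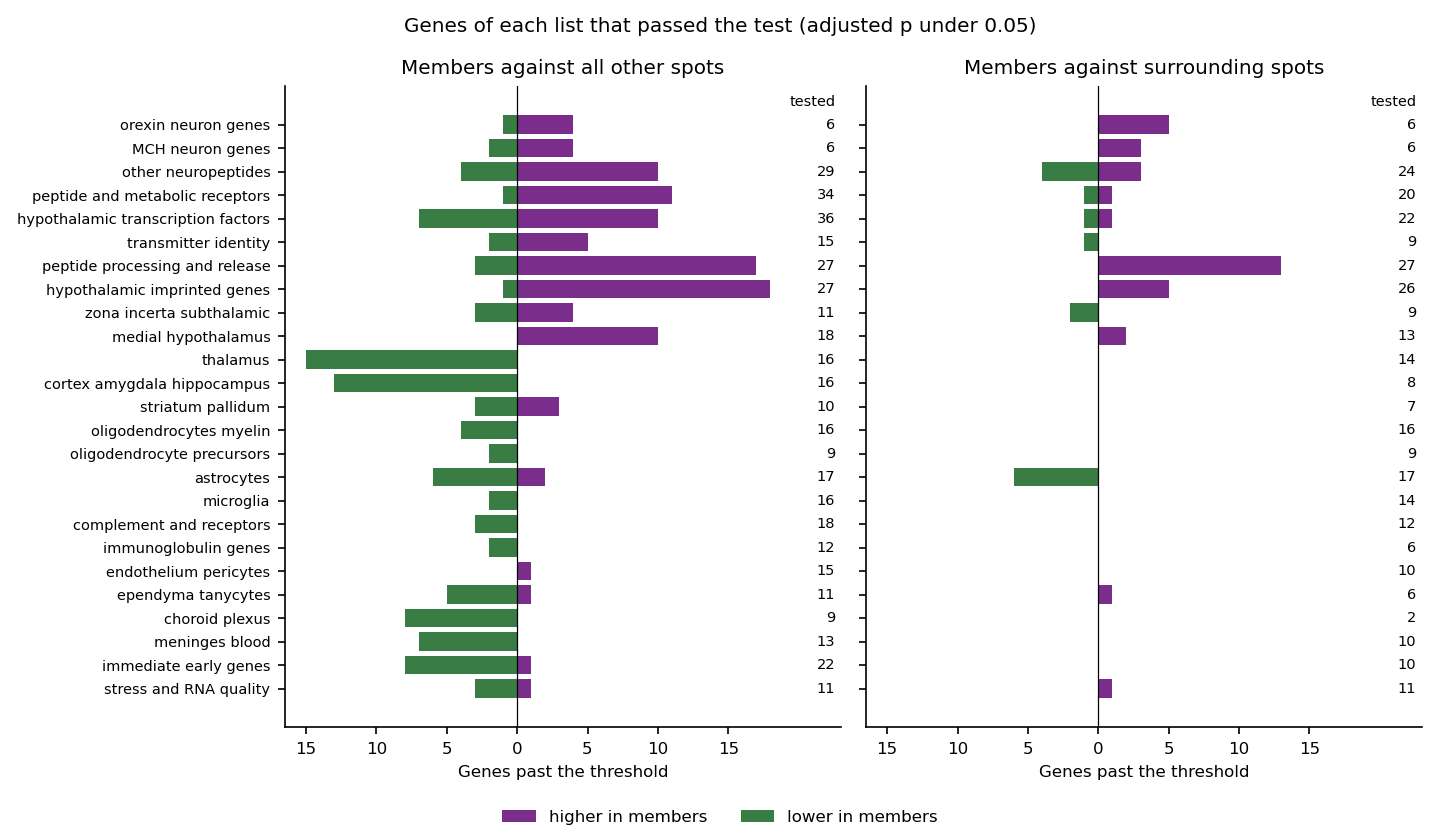
Number of genes of each list (y axis) past an adjusted p of 0.05 in the comparison of members with all other spots (left) and with surrounding spots (right), with higher genes to the right of 0 and lower genes to the left, and the number tested at the right edge. Peptide processing genes are higher in both panels (17 and 13 of 27), while the thalamic and cortical lists, lower on the left, have no call on the right.

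A closer comparison set members against the 266 spots of mouse 1 and 227 of mouse 2 that lay within 3 pitches of a member. Both classes thus lay close together, but the surround reached further, over rows 58 to 75 in mouse 1 and 59 to 75 in mouse 2. Differences between adjoining regions are therefore not removed. Mitochondrial genes took 12.9% and 17.3% of the UMIs of the surround, against 12.2% and 15.3% in members. Here 118 of 10804 genes were higher in members (1.09%) and 41 lower (0.379%). DESeq2 called 14 higher and 0 lower, with 26 lower genes at an unadjusted p under 0.05. Of the 28 named genes called here, 7 kept their call with DESeq2 and 13 lost it. For the rest DESeq2 gave no adjusted p, and such genes are not listed below as lost with DESeq2. Without the mouse block edgeR called 27 and 2, and with spots chosen by Hcrt alone 23 and 2. Scaling by library totals gave 125 higher and 110 lower.

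Of the genes of orexin neurons 5 of 6 were higher and none was lower in this fit, with a median of 1.63 against -0.01 for all genes. Lhx9 had 18.1 and 21.2 CPM in members against 3.16 and 3.61 CPM around them (2.55 ± 0.44, adjusted p = 0.00067), and lost the call with spots chosen by Pmch alone. Nptx2 had 55.9 and 49.8 CPM against 17.8 and 10.5 CPM (1.99 ± 0.25, adjusted p = 4.67e-06), with the same exception. Pdyn had 122 and 83.9 CPM against 36.3 and 26.6 CPM (1.74 ± 0.17, adjusted p = 2.19e-08), Scg2 had 1916 and 1412 CPM against 572 and 596 CPM (1.53 ± 0.08, adjusted p = 2.36e-14), and Rfx4 was the fifth. Both mice lay in the direction of the call for these genes, as for all 159 genes called in this fit.

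Of the 5 genes of MCH neurons apart from Parpbp, 2 were higher (median 0.12), and with Parpbp 3 of 6 (median 0.59). Tacr3 was higher by 1.87 ± 0.27 (adjusted p = 5.27e-05) and Cartpt by 1.06 ± 0.12 (adjusted p = 1.03e-06). Both calls were lost with spots chosen by Hcrt alone, and that of Cartpt also with DESeq2 and without the mouse block. Cartpt stood at 484 and 279 CPM in the surrounding spots, against 656 and 805 CPM in the members. As a description, Parpbp stood at 211 and 177 CPM in members against 19.3 and 38.1 CPM around them. Chodl was higher by 1.99 ± 0.29 (adjusted p = 6.05e-05), with the same loss when Hcrt alone chose the spots.

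Peptide processing genes were higher in 13 of 27 and lower in none of them (median 0.46). Pcsk1 stood at 118 and 82.0 CPM against 35.5 and 23.3 CPM (1.81 ± 0.17, adjusted p = 1.3e-08). Pcsk2, a second prohormone convertase, stood at 235 and 221 CPM against 98.3 and 133 CPM (0.98 ± 0.11, adjusted p = 8.86e-07), although its level in members was close to that of all other spots, at 223 and 257 CPM. Chgb, chromogranin B, likewise passed here (0.49 ± 0.10, adjusted p = 0.00421) while it was lower against all other spots. These last genes were chosen after their values were seen. Outside the lists, C1ql3, a secreted C1q-like synaptic protein, was higher by 1.78 ± 0.19 (adjusted p = 2.48e-07) and Ell2, a transcription elongation factor, by 1.53 ± 0.23 (adjusted p = 6.05e-05). The call of Ell2 was lost with DESeq2 and with spots chosen by Hcrt alone.

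Of the 26 tested imprinted genes 5 were higher (median 0.12): Plagl1, Dlk1, Nnat, Ndn and Meg3. Plagl1 stood at 57.6 and 45.2 CPM against 20.5 and 17.1 CPM (1.48 ± 0.23, adjusted p = 0.000171) and Nnat, neuronatin, at 780 and 710 CPM against 375 and 417 CPM (0.94 ± 0.08, adjusted p = 9.15e-10). The call of Plagl1 was lost with DESeq2 and that of Nnat without the mouse block. Of 24 other neuropeptide genes 3 were higher and 4 lower, and of 20 receptors and of 22 transcription factors 1 was higher and 1 lower each. Gal (0.12 ± 0.14, adjusted p = 0.85) and Nts (-0.14 ± 0.11, adjusted p = 0.715) did not pass. Of 9 transmitter genes only Gad2 passed, at 196 and 223 CPM against 258 and 313 CPM (-0.41 ± 0.09, adjusted p = 0.0106), and it lost the call in 5 alternatives. Astrocyte genes were lower in 6 of 17 (median -0.35), with a summed level of 2364 and 2692 CPM in members against 3043 and 3445 CPM around them, and the part of this in the other results was not tested. The lists of thalamus, cortex, striatum, myelin, oligodendrocyte precursors, microglia, complement, immunoglobulin, endothelium, choroid plexus, meninges and blood, and immediate early genes gave no call. Of zona incerta genes 2 of 9 were lower, of medial hypothalamic genes 2 of 13 were higher, of ependymal genes 1 of 6 was higher, and of stress genes 1 of 11 was higher.

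The largest falls differed between the sections. Oxt, the oxytocin precursor, stood at 14.8 CPM in members of mouse 1 against 785 CPM around them, but had 0 UMIs in members of mouse 2 against 0.985 CPM (-5.66 ± 0.23, adjusted p = 7.34e-18), so its value rests on mouse 1. Avp, the vasopressin precursor, likewise stood at 36.2 against 273 CPM in mouse 1 and at 5.53 against 6.57 CPM in mouse 2 (-2.55 ± 0.25). Both calls were lost with DESeq2 and without the mouse block, that of Oxt also with 30 spots per section and that of Avp also with spots chosen by Hcrt alone. Meis2, a homeobox gene of the zona incerta, was lower in both mice, at 6.58 and 6.45 CPM against 24.5 and 30.2 CPM (-2.06 ± 0.38, adjusted p = 0.00134), and lost the call when either peptide alone chose the spots. Trh, the thyrotropin-releasing hormone precursor, stood at 3.29 and 12.0 CPM against 15 and 29.2 CPM (-1.42 ± 0.37, adjusted p = 0.0473), with the call lost in 4 alternatives.

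A further comparison used the 60 non-member spots per section, also in rows 40 or more, with the highest mean signal of Hap1 and Baiap3, which mark hypothalamic and related neurons. These spots did not lie alike in the sections. In mouse 1, 33 were within 7 pitches of the mirror line and 10 over 18 pitches from it, and in mouse 2 the numbers were 18 and 38. Members were higher in 218 of 7899 genes (2.76%) and lower in 237 (3.0%). DESeq2 called only 5 and 6, and library totals gave 82 and 192. Thinning each class to its shallower mouse, which does not equalise the classes, left 14 and 14. Cartpt was higher in members at 656 and 805 CPM against 348 and 169 CPM (1.70 ± 0.16), a call lost under DESeq2 only. Pcsk1 was higher by 1.75 ± 0.26, with the same exception. Sst, the somatostatin precursor, was lower at 92.1 and 73.7 CPM against 383 and 682 CPM (-2.59 ± 0.18), and so was Nrgn, a forebrain postsynaptic gene, at 82.3 and 102 CPM against 651 and 1229 CPM (-3.22 ± 0.18). Of 23 tested imprinted genes 1 was higher and 3 were lower (median 0.10), of 24 peptide processing genes 7 were higher and 1 lower (median 0.34), and of 17 other neuropeptide genes 5 were higher and 8 lower (median -0.46). Myelin genes were higher in 15 of 16 (median 1.1), and their part in these differences was not tested.

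The image sides of the members were compared because the injection was made on 1 side per the series' design. On the left 3 of 6082 genes were higher (0.0493%) and 5 were lower (0.0822%). Parpbp stood at 369 CPM on the left against 96.3 CPM on the right in mouse 1, and at 281 against 80.0 CPM in mouse 2. It is 1 of the 3 genes called, but is given as a description, since its reads and those of Pmch cannot be told apart. Its UMIs were clumped, with 52 and 50 of 147 left UMIs of mouse 2 in 2 spots. Without the 2 highest spots of each side the levels were 212 against 65.5 CPM in mouse 1 and 94.4 against 53.2 CPM in mouse 2. Its antisense neighbour Pmch stood at 38900 against 28680 CPM and at 40553 against 35425 CPM, as a description. Cox8a, a mitochondrial respiratory subunit, was higher by 0.49 ± 0.11 (adjusted p = 0.0118), nearly all of it in mouse 1 with 1456 against 785 CPM, and 838 against 790 CPM in mouse 2. This call was lost in 5 alternatives, among them DESeq2 and no mouse block. The hemoglobin genes Hbb-bs, Hba-a1, Hba-a2 and Hbb-bt were lower on the left in both mice, with Hbb-bs at 212 against 969 CPM and 670 against 1658 CPM (-1.59 ± 0.12, adjusted p = 1.56e-34). The remaining calls, named after their values were seen, were Socs7 with 8 against 1 and 19 against 3 UMIs, and Ptgds with 789 against 2164 CPM in mouse 1 but 947 against 896 CPM in mouse 2. With 30 spots per section no gene was called on either side, with 46 higher and 54 lower at an unadjusted p under 0.05, and the hemoglobin calls were lost in 4 to 6 alternatives.

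Hcrt stood at 18149 against 13440 CPM between left and right in mouse 1 and at 5821 against 10515 CPM in mouse 2, so the sections went opposite ways. Cartpt (0.41 ± 0.12, adjusted p = 0.305), Slc17a6 (0.81 ± 0.29, adjusted p = 0.882) and Gal (-0.75 ± 0.27, adjusted p = 0.943) did not pass. C1qa stood at 58.9 against 68.0 CPM in mouse 1 and 44 against 48 CPM in mouse 2 (-0.15 ± 0.35, adjusted p = 0.999).

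Members also differed among themselves. Within each section the 20 members that leaned most to Hcrt were set beside the 20 that leaned most to Pmch, by the difference of their log signals, with no test because the rule genes made the split. Of 131 listed genes with at least 50 UMIs, 10 were at least 1.5-fold higher in the Hcrt-leaning spots of both mice and 6 in the Pmch-leaning spots, both counts with the rule genes included. Nptx2 was 8.85-fold and 9.80-fold higher in the Hcrt-leaning spots, on 18 against 2 and 40 against 4 UMIs. Pdyn was 3.28-fold and 15.9-fold higher there, Pcsk1 4.48-fold and 4.07-fold, Scg2 2.97-fold and 3.59-fold, Gal 3.84-fold and 2.23-fold, and Vgf, a granin-like precursor, 2.37-fold and 1.91-fold. Dlk1 was 2.70-fold and 2.11-fold higher in the same spots. The Pmch-leaning spots held 3.01-fold and 7.59-fold more Cartpt, 2.03-fold and 4.21-fold more Tacr3, and 3.39-fold and 2.47-fold more Nucb2, the nesfatin precursor gene. Sst and Parpbp were also higher in the Pmch-leaning spots. These genes were named because they lay the same way in both mice, so that their shared direction follows from the choice.

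The members of the mice were compared by size alone, since each genotype label has 1 section. Of 153 listed genes with at least 50 UMIs, 9 differed at least 2-fold, 1 higher in mouse 1 and 8 in mouse 2. C1qc was higher in mouse 1, at 69.1 against 32.3 CPM on 42 and 35 UMIs (2.14-fold, exact Poisson interval 1.33 to 3.46). The other C1q chains did not reach 2-fold, with C1qa at 1.39-fold (0.89 to 2.16) and C1qb at 1.02-fold (0.64 to 1.62). Slc6a11, a GABA transporter of astrocytes, was 3.39-fold higher in mouse 2 (2.12 to 5.66), and the hemoglobin gene Hba-a1 was 3.24-fold higher there (2.59 to 4.08). Hba-a2, Hbb-bt, Grb10, Camk2a, Secisbp2l and Fa2h were the others. Genotype label, section and depth cannot be told apart in these ratios.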

How the data were processed

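The files hold whole UMI counts per gene and spot, deposited by the authors. Per the file headers, Space Ranger 1.3.1 made these counts, and the submitters' processing notes name the build mm10. No source used here gives the annotation or the strand setting. Of 32285 genes, 78 share a symbol with another. The members and the 25 gene lists (423 genes) were chosen with earlier results of these data known. Counts were summed per mouse and spot class and tested by the quasi-likelihood method of edgeR 4.0.16 (R 4.3.3), with the mouse as a block, TMM scaling, the filterByExpr filter and a Benjamini-Hochberg threshold of 0.05. The SE is the log2 value over the square root of F. Prior degrees of freedom were 28.4 for the surrounding spots and unbounded otherwise. Spots were not replicates. DESeq2 1.42.0 was an alternative, with the numbers of spots, single peptides as the rule, row and depth limits, the surround width, thinning to equal depth, mitochondrial genes left out and single mice. Thinning brought the deeper mouse of each spot class to the total of the shallower one, and the classes compared kept unlike depths. Text names follow a rule: set genes, the largest rises and falls (at least 200 UMIs against all other spots, 100 otherwise), and up to 3 genes a list, and further listed genes were mostly given by call only. Single-mouse values used a prior count of 2. Positions were in spot pitches, and the mirror line came from 500 variable genes in 20 components. Intervals are exact at 95%. Promoters came from RefSeq GRCm38.p6, and both rule genes matched. The labels pair the replicate numbers with single mice, so the block is the mouse itself. Some listed genes are counted but not reported here by name.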

Additional observations from a re-analysis of the deposited data

How the results depend on the processing

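Against all other spots (1249 higher, 1453 lower), the alternatives that moved a count by over 1.5 times were no replicate block on the mouse (635 and 881), DESeq2 (592 and 500), thinning to equal depth (773 and 913) and 30 spots per section (777 higher). Against surrounding spots (118 and 41) they were no replicate block (27 and 2), DESeq2 (14 and 0), spots chosen by Hcrt alone (23 and 2), a surround of 5 pitches (274 and 204), and for lower genes library totals (110), no low-count filter (76), 30 spots (101) and 100 spots (108). Against Hap1 and Baiap3 spots (218 and 237) they were no replicate block (37 and 28), DESeq2 (5 and 6), 30 spots (110 and 111), 100 spots (124 and 133), Pmch alone (104 and 89), thinning (14 and 14), and for higher genes library totals (82) and Hcrt alone (130). Between sides (3 and 5) they were no replicate block (1 and 0, with 79 lower at an unadjusted p under 0.05), DESeq2 (1 and 0, with 4), 30 spots (0 and 0, with 46 and 54), Hcrt alone (1 and 0, with 93), Pmch alone (1 and 1) and 100 spots (6 higher).

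Of the named genes called, 46 of 78, 4 of 28, 8 of 45 and 0 of 6 kept their call under every alternative with a test, in the same order. An alternative that gave a gene no adjusted p was passed over. Against Hap1 and Baiap3 spots, DESeq2 kept the call for 6 of the 45 and lost it for 24, with no adjusted p for the rest. None of the named genes called reversed in a single mouse, but the naming rule fixed this for most of them. Apart from the set genes, it took only calls with both mice in the same direction. Over all genes called, both mice lay in the direction of the call in 2670 of 2702, 159 of 159, 441 of 455 and 7 of 8, in the same order. Ptgds and Socs7, the side calls outside the naming rule, are not among the named genes, and Ptgds went opposite ways in the mice. Igkc turned to 0.079 with spots chosen by Hcrt alone, and Neurod6 to 0.048 and Nr4a2 to 0.13 with other spots limited to rows 40 or more, all on the log2 scale. The cause was not tested. Pmch in spots chosen by Hcrt alone ranged from 4.22 to 4.75 in single mice, and Hcrt in spots chosen by Pmch alone from 4.82 to 5.32. Both kept their call in every fit with a test, including that with no replicate block, but always against spots that included rows under 40. Library totals moved the median of all genes from -0.08 to -0.19 against all other spots and from 0.00 to -0.14 against Hap1 and Baiap3 spots. With 1 residual degree of freedom, 1 section per mouse and 60 spots, genes under about 10 UMIs in members have little precision.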
